A study of Mus musculus with 8 samples.

Results

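Ganciclovir was compared with its solvent DMSO in mouse embryonic stem cells of the group labelled HSVTK. The comparison rests on 4 of the 8 libraries of the series, which were chosen by their labels: 2 libraries labelled HSVTK GANC and 2 labelled HSVTK DMSO. All 17976 genes with enough counts were tested, and 104 gene lists were drawn over them, of which only a part is described. The genes of the 2-cell-like state, of low oxygen, of sterol synthesis and of the p53 response were set aside as subjects.

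The HSVTK cells carry the reporter that the study calls 2C::HSVTK, which makes thymidine kinase of herpes simplex virus in 2-cell-like cells. These are the few stem cells in a culture that switch on genes of the 2-cell embryo. The viral enzyme phosphorylates ganciclovir, cellular kinases complete the triphosphate, and the product stops DNA synthesis, so the drug (GANC) was added to remove those cells. The other 4 libraries, 2 of Control DMSO and 2 of Control GANC, came from mouse embryonic stem cells labelled Control, and are used here for the response to the drug without the HSVTK label. The labels give neither the dose, the time, the strain and sex of the lines nor what the Control cells carry, and it is not stated whether the HSVTK line is 1 clone. Whether the 2 libraries of each group were grown as separate cultures is not said either. Every p-value therefore measures only how these libraries vary, and that variation may be technical.

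The level of a gene is given as CPM, its counts scaled to the depth of its library. A fold change is on the log2 scale, GANC over DMSO, with its standard error (SE). A gene was called, or said to rise or fall, where its p-value adjusted over all tested genes in edgeR's quasi-likelihood test was under 0.05. The check gene of the reporter is Zscan4c, a marker of the 2-cell-like state. It stood at 4.70 and 3.59 CPM in the libraries labelled HSVTK DMSO and at 8.53 and 8.88 CPM in those labelled HSVTK GANC, and at 4.10 to 5.23 CPM in the Control libraries. It was thus higher in the group in which the drug should deplete it, and every direction below rests on the labels as given. For brevity the 4 libraries are called "labelled GANC" and "labelled DMSO", and each one by its replicate number, as in GANC-1 and DMSO-2. Several counts below were run again without each of these libraries in turn.

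Library totals ran from 29704460 to 34184475 counts. The libraries labelled GANC held the most genes with a count, 25146 and 25656 against 23777 to 24772 in the other 6, and the largest mitochondrial share, 3.56 and 3.45% against 2.88 to 3.17%. The part of either difference in the results below was not tested. All 11 embryonic stem cell markers were present, and their summed level was 6908 and 7006 CPM in the libraries labelled DMSO and 6098 and 6210 CPM in those labelled GANC. The Control libraries held 5767 to 6390 CPM, so the libraries labelled DMSO were the high ones. Pou5f1 (0.12 ± 0.06, SE) and Nanog (0.03 ± 0.05) did not pass the test, although Pou5f1 was called higher with library size scaling (0.15, adjusted p = 0.0309), and Sox2 fell by 0.31 ± 0.05 on the log2 scale. Tdgf1, a member that fell from 1290 and 1315 CPM to 777 and 848 CPM, carried most of the drop in the sum. It stood at 557.5 to 680.2 CPM in the Control libraries. Markers of other cell types were in part at 0 and in part present. Ptprc of leukocytes, Hbb-bs of red cells, Actc1 of muscle, Ttr of endoderm, Dcx of neurons, Prl3d1 of trophoblast and Dcn of fibroblasts, named because they were at 0, had 0 counts in all 4 HSVTK libraries. Of the same lists, Cd68 stood at 13.1 to 16.1 CPM, Myh6 at 2.15 to 3.23 CPM, Gata6 at 1.36 to 2.01 CPM, Tubb3 at 102 to 137 CPM and Thy1 at 15.1 to 17.1 CPM. The 3 immune markers summed to 14.6 and 15.3 CPM in the libraries labelled DMSO and to 18.4 and 17.0 CPM in those labelled GANC.

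In all, 5119 of the 17976 genes (28.5%) were called, 2391 higher (13.3%) and 2728 lower (15.2%) in the libraries labelled GANC. Most of these differences were small. The median size was 0.50 among genes called higher and 0.48 among those called lower, and 58.4% and 58.7% of them lay under 1.5-fold. Without DMSO-1 or replicate 2 the called genes were 3380 and 3313. Genes that were both called and at least 2-fold apart made up 5.52% of all tested genes. Because weak genes are rarely called, lists of well expressed genes are set below against the 13496 genes with a mean of at least 1 CPM, of which 35.4% were called, 16.2% higher and 19.1% lower. The median fold change over all tested genes was 0.01, and it stayed within 0.05 of 0 with library size scaling.

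Control cells did not follow the same course. The drug was tied to 1453 called genes there (8.08%), 850 higher (4.73%) and 603 lower (3.35%), and these libraries are not shared with the HSVTK comparison. That count was 592 without Control DMSO replicate 1, 433 without Control DMSO replicate 2 and 728 without Control GANC replicate 2. With limma on log2(FPKM + 1) it was 190. Of the 2728 genes that fell in HSVTK cells, 428 rose in Control cells and 58 fell. Of the 2391 that rose, 226 fell in Control cells and 58 rose. The test of the difference between both responses called 4595 genes (25.6%), 2087 with the higher (11.6%) and 2508 with the lower (14%) response in HSVTK cells. The untreated groups were themselves apart for many of these genes. Of the 5119 called genes, 3286 (64.2%) had a mean log2 level in the libraries labelled GANC that lay nearer to Control DMSO than the level in the libraries labelled DMSO did. The median distance from Control DMSO was 0.22 for the libraries labelled GANC and 0.36 for those labelled DMSO. Lists lay on both sides of that share. Above it lay 18 of 20 called members of the endoplasmic reticulum list and 20 of 24 RNA helicases. Below it lay 15 of 35 mitotic genes, 7 of 15 Hippo genes and SRF or YAP targets, and 8 of 28 ribosomal proteins. These distances carry no test.

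**Figure D1:**
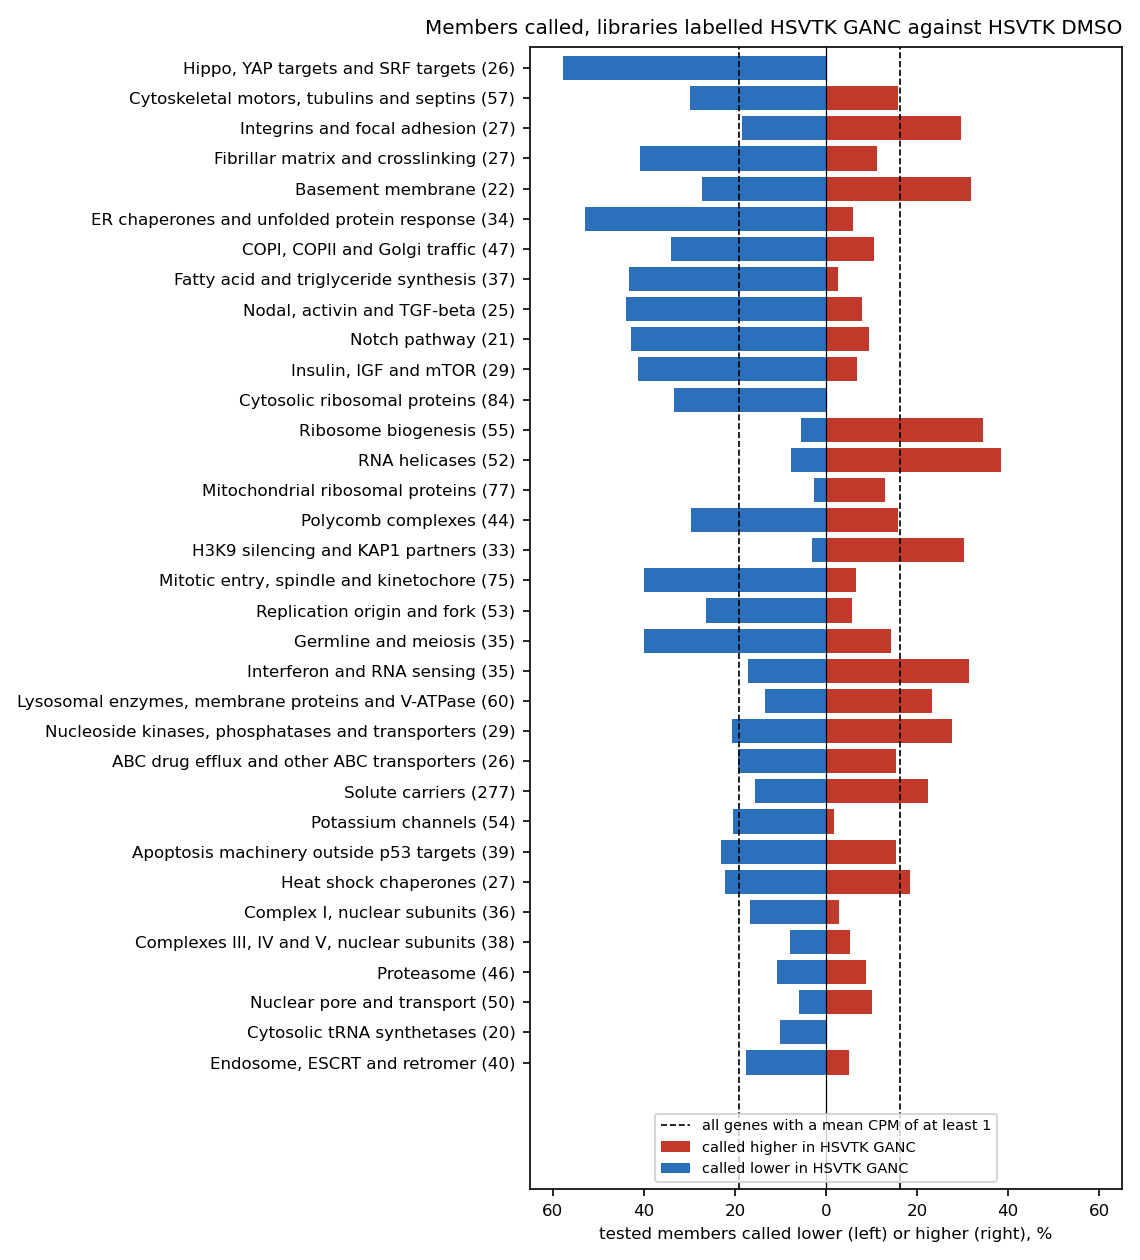
Share of the tested members of 34 gene lists that were called higher (red, right) or lower (blue, left) under GANC than under DMSO in the HSVTK libraries as labelled, in percent, with the number of tested members in brackets. Dashed lines mark the shares among all genes with a mean of at least 1 CPM, 16.2% higher and 19.1% lower; the blue bars of the SRF and endoplasmic reticulum lists and the red bars of the ribosome biogenesis and RNA helicase lists reach well past them.

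Genes of the Hippo pathway and targets of SRF and YAP, taken as a single list, were lower more often than higher. Serum response factor (SRF) is a transcription factor that, with cofactors released when actin polymerizes, drives genes of actin filaments and adhesion, while YAP and its TEAD partners are the output of the Hippo pathway. Of 26 tested members, 15 were lower and 0 higher in edgeR's test, against a background of 19.1% lower, with a median of -0.36. At an unadjusted p under 0.05 it was 16 lower and 1 higher, and DESeq2 and limma on log2(FPKM + 1) each gave 15 lower and 0 higher. Leaving out any of the 4 libraries left 13 to 15 lower.

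Promoters of 6 of the 22 members with a sequence hold the box to which SRF binds. The CArG box was looked for on both strands in the 250 bases before the RefSeq start of each gene, a search chosen after the values were seen. It was found in 171 of the 11970 tested genes with a promoter in the table (1.43%) and in 27.3% of the members. The list was written to hold SRF targets, so this higher share is not a result of these data. All but Filip1l (-0.20, adjusted p = 0.781) of these 6 members were called lower, namely Actg1, Cnn2, Myl9, Srf and Vcl, and of the 16 members without a match 9 were lower. The call of Myl9 was lost without DMSO-1 (adjusted p = 0.0764) and GANC-2 (adjusted p = 0.0988). Among all tested genes 24.6% of those with a match and 17.8% of those without were lower. A match is a description of these letters and does not show binding. The stretches around the match are shown for 4 of these genes, 5′ to 3′ on the strand of the gene, from RefSeq's GRCm38.p6, which is not the build of the deposited counts. Capitals mark the CArG box. The stretch of Srf lies at chr17:46556175-46556284 (minus strand) and that of Cnn2 at chr10:79988504-79988593 (plus strand). That of Vcl lies at chr14:20929148-20929220 (plus strand) and that of Actg1 at chr11:120348536-120348625 (minus strand).
Srf: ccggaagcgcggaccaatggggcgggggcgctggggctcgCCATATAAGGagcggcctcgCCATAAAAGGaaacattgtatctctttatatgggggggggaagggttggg
Cnn2: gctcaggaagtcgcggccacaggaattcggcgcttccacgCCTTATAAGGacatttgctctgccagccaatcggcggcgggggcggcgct
Vcl: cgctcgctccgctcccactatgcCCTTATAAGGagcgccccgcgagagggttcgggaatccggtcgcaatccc
Actg1: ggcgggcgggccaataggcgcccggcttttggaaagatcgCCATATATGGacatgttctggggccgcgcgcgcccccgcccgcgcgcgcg
Srf has 2 boxes, 82 and 62 bases before its start. The box of Cnn2 lies 56, that of Actg1 90 and that of Vcl 227 bases before the start.

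Cnn2 (ENSMUSG00000004665), the calponin that stabilizes actin filaments, stood at 38.9 and 42.2 CPM in the libraries labelled DMSO and at 19.6 and 19 CPM in those labelled GANC. The Control libraries held 32.9 to 36.4 CPM, between both HSVTK groups and nearer to the libraries labelled DMSO. It fell by 1.07 ± 0.09 on the log2 scale (SE, adjusted p = 8.16e-10). Srf (ENSMUSG00000015605) itself stood at 58.7 and 57.8 CPM and then at 36.6 and 35.1 CPM, with 40.3 to 51.0 CPM in the Control libraries. It fell by 0.70 ± 0.09 (adjusted p = 4.08e-07), and the Control libraries again lay between both HSVTK groups. Vcl, the vinculin that ties actin to adhesions, fell by 0.72 ± 0.09 and the tropomyosin Tpm4 by 0.75 ± 0.07. Of the Hippo members, Tead2, a DNA-binding partner of YAP, fell by 0.72 ± 0.07 and the kinase Lats1 by 0.84 ± 0.10. Yap1 stood at 0.07 ± 0.06 (adjusted p = 0.430). Of the actins, Actb was listed at -0.01 ± 0.05 (adjusted p = 0.893) and Actg1, chosen after its values were seen, fell by 0.33 ± 0.05. In Control cells 3 members rose and 3 fell, and the responses differed for 10 members, all lower in HSVTK cells.

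Motors and tubulins moved with less unity. Of 57 tested motors, tubulins and septins 17 were lower and 9 higher, with a median of -0.11. This was 45.6% called, against 35.4% of well expressed genes (19.1% lower and 16.2% higher). Without DMSO-2 or without GANC-1 the members called higher were 5. With limma on log2(FPKM + 1) 10 were lower, with a median of -0.05. The kinesin Kif21b fell by 1.19 ± 0.11 (adjusted p = 1.82e-09) and rose in Control cells by 0.62 (adjusted p = 0.000562). Nonmuscle myosins were lower as well, Myh10 by 0.53 ± 0.07 and Myh14 by 0.69 ± 0.10, as were the tubulin Tubb6 by 0.71 ± 0.08 and the filopodial myosin Myo10 by 0.41 ± 0.06. Map1a, a microtubule-associated protein, rose by 0.74 ± 0.10.

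**Figure D2:**
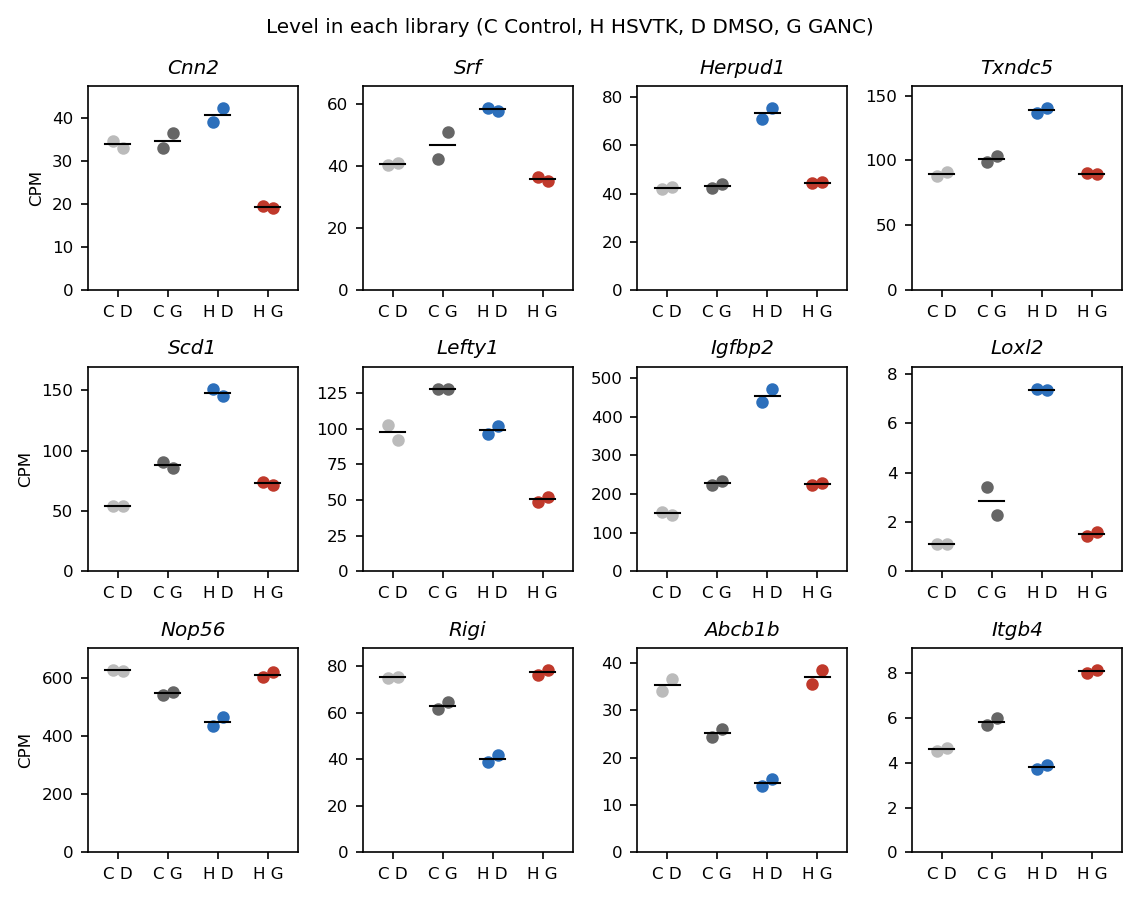
Level of 12 genes in each of the 8 libraries, in CPM on linear axes from 0; C is Control, H is HSVTK, D is DMSO and G is GANC, each point is a library and each bar the mean of 2. In Herpud1, Txndc5 and Nop56 the HSVTK DMSO libraries stand apart from the other 6, while in Cnn2 and Lefty1 the HSVTK GANC libraries are the lowest.

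Matrix crosslinking genes fell, and adhesion genes split. Fibrillar matrix holds tissues together through collagens and fibronectin that lysyl oxidases and transglutaminases crosslink. Of 27 tested members 11 were lower and 3 higher (51.9% called, against 35.4% of well expressed genes), with a median of -0.33. Of the lower ones 2, the prolyl hydroxylases P4ha1 and P4ha2, also belong to the low-oxygen genes set aside here. Without DMSO-2 or GANC-2 the members higher were 1. With limma on log2(FPKM + 1) 8 were lower and 1 higher, with a median of -0.03. Loxl2 (ENSMUSG00000034205), a lysyl oxidase, stood at 7.38 and 7.33 CPM in the libraries labelled DMSO and at 1.43 and 1.61 CPM in those labelled GANC. The Control libraries held 1.09 to 3.42 CPM, so the libraries labelled DMSO were the high ones. It fell by 2.27 ± 0.23 (adjusted p = 2.02e-08) and rose in Control cells by 1.38 (adjusted p = 0.00143). The members called higher, named after their values were seen, were the microfibril protein Fbn1 (0.91), the lysyl hydroxylase Plod3 (0.34) and the proteoglycan Vcan (0.50). Fbn1 lost its call without DMSO-1, GANC-1 or GANC-2, and in DESeq2's Wald test (adjusted p = 0.06965). Plod3 lost its call without DMSO-2 or GANC-2, and Vcan without DMSO-2 or GANC-1. Transglutaminase Tgm2 fell by 1.58 ± 0.22, the lysyl hydroxylase Plod2 by 0.81 ± 0.09 and fibronectin Fn1 by 0.29 ± 0.05. In Control cells 5 members rose and 1 fell, and the responses differed for 15.

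Integrins and focal adhesion genes had 8 of 27 members higher and 5 lower (48.1% called, against 35.4% of well expressed genes). Without DMSO-1 or without GANC-1 the members called higher were 5, and without GANC-2 those called lower were 3. Itgb4 (ENSMUSG00000020758), the integrin subunit of hemidesmosomes, stood at 3.71 and 3.88 CPM and then at 7.99 and 8.13 CPM, and the Control libraries at 4.52 to 5.97 CPM. It rose by 1.09 ± 0.16 (adjusted p = 1.13e-05), with the libraries labelled GANC above all others. Itgb5 rose by 0.75 ± 0.10 and the adaptor Parvb by 0.63 ± 0.08, while the widely shared subunit Itgb1 fell by 0.32 ± 0.06. Among 22 basement membrane genes 7 were higher and 6 lower (59.1% called). Col18a1 rose by 0.57 ± 0.06, and the laminin chain Lamb1 fell by 0.47 ± 0.09 and the nidogen Nid2 by 0.30 ± 0.06. Without DMSO-2 this list had 3 higher and 3 lower, without GANC-1 it had 4 higher, and without GANC-2 it had 3 lower.

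Genes of endoplasmic reticulum chaperones and of the unfolded protein response, taken as a single list, were lower more often than higher. This compartment folds secreted and membrane proteins, and the unfolded protein response raises its chaperones when folding lags, in part through the ER stress response element (ERSE) in their promoters. Of 34 tested members 18 were lower and 2 higher, with a median of -0.28, and leaving out any of the 4 libraries left 13 to 17 lower. Without Ero1a, an oxidase that is also a low-oxygen gene, 17 were lower. Of all 34 members 58.8% were called, against 35.4% of well expressed genes. Of the 20 called members 18 had a level in the libraries labelled GANC that lay nearer to Control DMSO, against 64.2% of all called genes.

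The ERSE was searched as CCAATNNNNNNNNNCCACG on both strands in the same 250 bases, also a search chosen after the values were seen. It was present in 23 of 11970 promoters (0.192%) and in 10 of 29 members (34.5%). The list was written from general knowledge of this response, so the higher share among its members is not a result of these data. Of the 10 members with the element 5 were lower, namely Derl3, Dnajc3, Hsp90b1, Hspa5 and Pdia6, and 5 were not called. Of the 19 members without it 11 were lower and 2 higher. The stretches are shown for 4 chaperones that fell and for Calr, which did not pass the test. Capitals mark the fixed letters of the element, and a match on the other strand reads CGTGG before ATTGG. Hspa5 lies at chr2:34771985-34772083 (plus strand), Pdia6 at chr12:17266451-17266549 (plus strand) and Dnajc3 at chr14:118937787-118937885 (plus strand). Hsp90b1 lies at chr10:86705493-86705694 (minus strand) and Calr at chr8:84847035-84847133 (minus strand).
Hspa5: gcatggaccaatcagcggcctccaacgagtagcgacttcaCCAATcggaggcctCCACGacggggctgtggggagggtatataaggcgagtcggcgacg
Pdia6: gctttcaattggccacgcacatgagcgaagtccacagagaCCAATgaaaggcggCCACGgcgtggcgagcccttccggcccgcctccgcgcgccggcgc
Dnajc3: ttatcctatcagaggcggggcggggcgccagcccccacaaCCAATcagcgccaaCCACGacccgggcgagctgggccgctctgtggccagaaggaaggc
Hsp90b1: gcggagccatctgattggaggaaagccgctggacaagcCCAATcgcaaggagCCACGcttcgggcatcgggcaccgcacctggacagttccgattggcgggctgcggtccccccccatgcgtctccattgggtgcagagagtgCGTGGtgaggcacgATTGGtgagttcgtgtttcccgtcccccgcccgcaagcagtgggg
Calr: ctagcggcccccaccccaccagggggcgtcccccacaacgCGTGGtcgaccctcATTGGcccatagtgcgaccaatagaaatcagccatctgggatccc
Hsp90b1 has 2 matches, one on each strand, and each of the other 4 stretches has 1.

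Herpud1 (ENSMUSG00000031770), which helps to return misfolded proteins for degradation, stood at 70.8 and 75.4 CPM in the libraries labelled DMSO and at 44.4 and 44.7 CPM in those labelled GANC. The 4 Control libraries held 41.8 to 43.9 CPM, so the libraries labelled DMSO stood above all others. It fell by 0.71 ± 0.08 (adjusted p = 3.37e-08). Txndc5 (ENSMUSG00000038991), a disulfide isomerase, stood at 137 and 140 CPM and then at 90.0 and 89.4 CPM, with 87.7 to 103 CPM in Control cells. It fell by 0.63 ± 0.06 (adjusted p = 1.92e-08), with the same group standing apart. Pdia6, another isomerase, fell by 0.43 ± 0.06, the cochaperone Dnajc3 by 0.53 ± 0.08 and Selenos, a selenoprotein of the degradation complex, by 0.52 ± 0.08. Chosen after their values were seen, the chaperones Hspa5 and Hsp90b1 fell by 0.20 ± 0.05 and 0.38 ± 0.06. The call of Hspa5 was lost without DMSO-2 (adjusted p = 0.0902) and without GANC-1 (adjusted p = 0.0621). The lectin chaperones Canx (-0.06 ± 0.05, adjusted p = 0.402) and Calr (0.06 ± 0.05, adjusted p = 0.460) and the isomerase P4hb (-0.07 ± 0.05, adjusted p = 0.381) did not pass the test. The members called higher were the isomerases Pdia3 (0.28 ± 0.05) and Pdia4 (0.18 ± 0.06), both named after their values were seen. The call of Pdia4 was lost without DMSO-1 (adjusted p = 0.278), DMSO-2 (adjusted p = 0.139) or GANC-2 (adjusted p = 0.658).

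Carriers between the endoplasmic reticulum and the Golgi apparatus followed in part. Of 47 members of the COPI, COPII and Golgi list 16 were lower and 5 higher, with a median of -0.10. This was 44.7% called, against 35.4% of well expressed genes (19.1% lower and 16.2% higher). The coat subunit Copg2 fell by 0.53 ± 0.08, the cargo receptors Surf4 by 0.36 ± 0.06, Tmed2 by 0.32 ± 0.06 and Lman1 by 0.31 ± 0.07, and Copz2, a coat subunit at 1.84 and 2.42 CPM in the libraries labelled DMSO, by 2.70 ± 0.50. Other coat subunits did not pass the test, among them Copa (-0.10 ± 0.06, adjusted p = 0.240) and Arcn1 (-0.09 ± 0.06, adjusted p = 0.260). Without DMSO-1 or replicate 2 the members lower were 10 and 9, and those higher were 1 or 2 without any library. Those lower were 11 with library size scaling and 9 with limma on log2(FPKM + 1).

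Enzymes that desaturate and activate fatty acids fell. Stearoyl-CoA desaturases and fatty acid desaturases introduce double bonds into fatty acids, and both families are known targets of the SREBP factors, as are the sterol genes set aside here. Of 37 tested members of fatty acid and triglyceride synthesis 16 were lower and 1 higher, with a median of -0.22. This was 45.9% called, against 35.4% of well expressed genes. Without GANC-2 there were 10 lower, without GANC-1 the median was -0.36, and limma on log2(FPKM + 1) gave a median of -0.14. Scd1 (ENSMUSG00000037071) stood at 151 and 145 CPM in the libraries labelled DMSO and at 74.1 and 72.0 CPM in those labelled GANC, and at 54.2 to 91.1 CPM in Control cells. It fell by 1.02 ± 0.07 (adjusted p = 2.99e-12) and rose in Control cells by 0.71 (adjusted p = 1.07e-07). Scd2, the more abundant desaturase, fell by 0.60 ± 0.05, Fads2 by 1.01 ± 0.08 and Fads1 by 0.77 ± 0.08. The acyl-CoA synthetase Acsl3 fell by 0.83 ± 0.08 and Acss2, which makes acetyl-CoA from acetate, by 0.90 ± 0.14. The member called higher was Fasn, the fatty acid synthase, named after its values were seen. It rose by 0.34 ± 0.06 in HSVTK and by 0.39 in Control cells (adjusted p = 0.000393). Srebf1, the gene of an SREBP factor, stood at -0.12 ± 0.08 (adjusted p = 0.269) and the elongase Elovl6 at -0.05 ± 0.07 (adjusted p = 0.629). In Control cells 10 members rose, and the responses differed for 14 members, all lower in HSVTK cells.

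**Figure D3:**
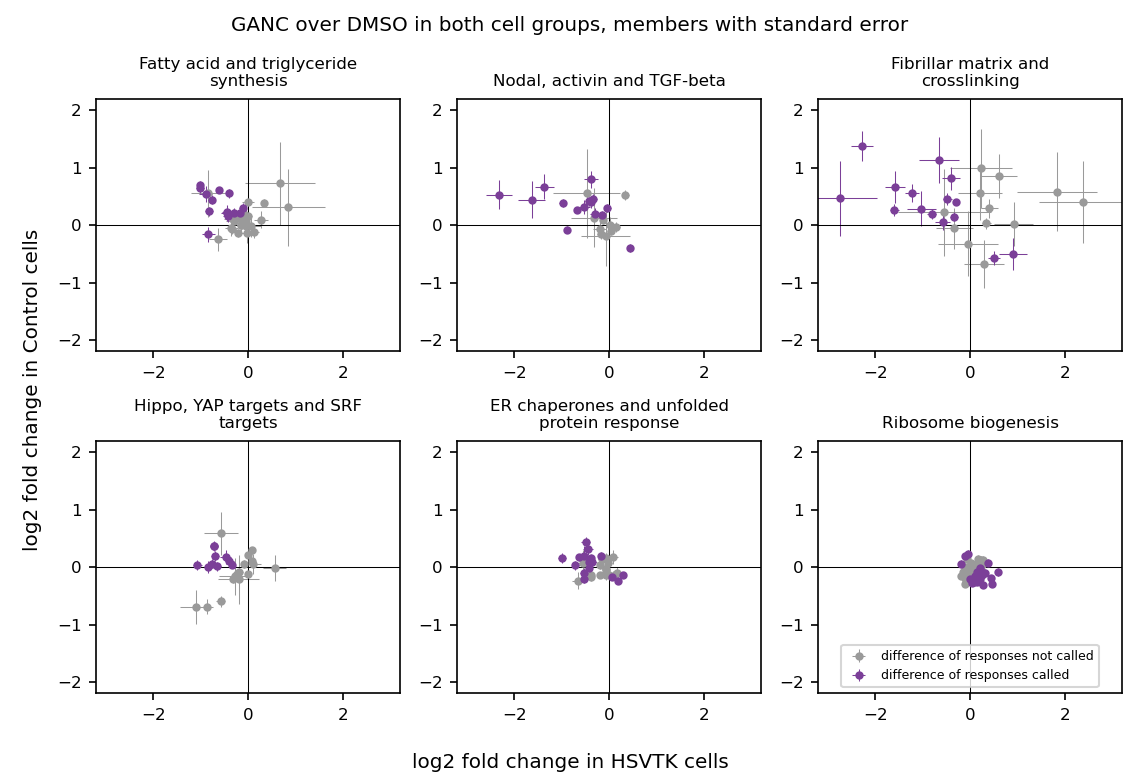
Log2 fold change of GANC over DMSO in HSVTK cells (x axis) against that in Control cells (y axis) for the tested members of 6 lists, with bars of 1 standard error; purple marks members whose responses differed in the interaction test. Points of fatty acid synthesis and of Nodal signalling gather at the upper left, lower in HSVTK and higher in Control cells.

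Targets and parts of Nodal signalling fell. Nodal, a ligand of the TGF-beta family, signals with the coreceptor Tdgf1 through Smad2 in stem cells, and its targets include its own inhibitor Lefty1. Of 25 tested members 11 were lower and 2 higher, with a median of -0.32, and leaving out any of the 4 libraries left 9 to 11 lower, and limma on log2(FPKM + 1) gave 9 and a median of -0.11. Called members made up 52% of this list, against 35.4% of well expressed genes. The ligand Nodal stood at -0.03 ± 0.07 (adjusted p = 0.757), and the signal carriers Smad2 (0.03 ± 0.07, adjusted p = 0.769) and Smad4 (-0.13 ± 0.07, adjusted p = 0.180) did not pass the test either. Lefty1 (ENSMUSG00000038793) stood at 96.3 and 102 CPM in the libraries labelled DMSO and at 48.6 and 52.3 CPM in those labelled GANC, with 92.2 to 128 CPM in Control cells. It fell by 0.97 ± 0.07 (adjusted p = 3.93e-11), so that the libraries labelled GANC were the lowest, and it rose in Control cells by 0.39 (adjusted p = 0.000765). Tdgf1 fell by 0.68 ± 0.05, the repressor Skil by 0.88 ± 0.07 and Ltbp1, which holds latent TGF-beta in the matrix, by 1.36 ± 0.21. Gdf3, a related ligand, rose by 0.43 ± 0.07, and Inhbb, named after its values were seen, was the other member called higher, with an adjusted p of 0.0674 without GANC-1. In Control cells 8 members rose and 1 fell.

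Notch ligands and receptors of insulin-like growth factors fell too. Notch ligands on a cell activate receptors on its neighbour. Of 21 tested Notch members 9 were lower and 2 higher, with a median of -0.26, and the members higher were 1 without DMSO-1. The median was -0.13 without GANC-2 and -0.06 with limma on log2(FPKM + 1). Called members made up 52.4% of the Notch list, against 35.4% of well expressed genes. The ligands Jag1, Jag2 and Dll1 fell by 0.60 ± 0.10, 0.54 ± 0.10 and 1.58 ± 0.28. The target Hes1 rose by 0.54 ± 0.10, while the receptor Notch1 (0.20 ± 0.10, adjusted p = 0.143) and the DNA-binding effector Rbpj (-0.05 ± 0.06, adjusted p = 0.527) did not pass the test. Of 29 members of the insulin, IGF and mTOR list 12 were lower and 2 higher (48.3% called), with a median of -0.14. The members higher were 0 or 1 without any of the 4 libraries. The median was -0.24 without DMSO-2 and -0.22 without GANC-2, and limma on log2(FPKM + 1) called 6 lower and 1 higher. Igfbp2 (ENSMUSG00000039323), a secreted binding protein of these factors, stood at 437 and 472 CPM in the libraries labelled DMSO and at 224 and 228 CPM in those labelled GANC. It fell by 1.01 ± 0.06 (adjusted p = 2.89e-13) and rose in Control cells, from 146 and 155 CPM to 222 and 233 CPM. Igfbp4 fell by 1.96 ± 0.21, and the receptors Insr, Igf1r and Igf2r by 0.99 ± 0.16, 0.55 ± 0.12 and 0.43 ± 0.08. Within the mTOR branch Rheb (-0.03 ± 0.06, adjusted p = 0.778) and Eif4ebp1 (0.03 ± 0.06, adjusted p = 0.714) did not pass the test.

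Ribosomal proteins and the factors that assemble ribosomes went different ways. Ribosomal proteins form the mature particle, and assembly factors process its RNA in the nucleolus. Of 84 tested cytosolic ribosomal protein genes 28 were lower and 0 higher in edgeR's test, with a median of -0.11. The share called was 33.3%, all lower. Among all genes with a mean of at least 1 CPM 35.4% were called and 19.1% were lower. At an unadjusted p under 0.05 the counts were 41 lower and 0 higher. DESeq2 called 30 lower and limma on log2(FPKM + 1) 7, and neither called any higher. The 28 became 7 when DMSO-2 was left out and 14 when GANC-1 was. The steps were small: Rpsa stood at 3189 and 3244 CPM in the libraries labelled DMSO and at 2644 and 2792 CPM in those labelled GANC, and fell by 0.24 ± 0.05 (adjusted p = 0.000270). Rpl27a and Rpl26 fell by 0.25 ± 0.05 and 0.24 ± 0.05, and Rpl7a (-0.02 ± 0.05, adjusted p = 0.756) and Rplp0 (0.09 ± 0.05, adjusted p = 0.214) did not pass the test. Many of these genes have processed copies, so their counts are uncertain where reads match several places.

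Ribosome biogenesis factors had 19 of 55 members higher, against a background of 16.2%, and 3 lower, with a median of 0.11. Without DMSO-1 or replicate 2 the members higher were 10 and those lower 0, and without either HSVTK GANC library 1 was lower. Nop56 (ENSMUSG00000027405), a core protein of box C/D particles that methylate ribosomal RNA, stood at 435 and 467 CPM in the libraries labelled DMSO and at 603 and 620 CPM in those labelled GANC. Control DMSO held 626 and 629 CPM, so the libraries labelled DMSO stood below the other 6. It rose by 0.44 ± 0.05 (adjusted p = 2.91e-07) and fell in Control cells by 0.20 (adjusted p = 0.0190). The members called lower, named after their values were seen, were Dkc1 (-0.16), Utp18 (-0.20) and Utp3 (-0.19). Dkc1 lost its call without each of the 4 HSVTK libraries in turn. Utp18 lost its call without DMSO-1, DMSO-2 or GANC-2, and Utp3 without DMSO-1, DMSO-2 or GANC-1. Also higher were the helicase Ddx56 (0.59 ± 0.07), Utp20 of the small subunit processome (0.46 ± 0.06), the RNA polymerase I subunit Polr1a (0.38 ± 0.07) and the nucleolar proteins Nolc1 (0.26 ± 0.05) and Ftsj3 (0.27 ± 0.05). The abundant nucleolar proteins Npm1 (-0.07 ± 0.04, adjusted p = 0.225) and Ncl (0.00 ± 0.05, adjusted p = 0.960) did not pass the test. In Control cells 13 members fell and 1 rose, and the responses differed for 25, of which 22 were higher in HSVTK cells.

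RNA helicases, which unwind RNA in splicing, ribosome assembly and translation, had 20 of 52 members higher and 4 lower, with a median of 0.09. This was 46.2% called, against 35.4% of well expressed genes. The count of higher members was 13 without DMSO-1 or GANC-2, 8 without DMSO-2 and 9 without GANC-1, and 1 was lower without DMSO-1, DMSO-2 or GANC-2. Those 4 were Ddx19b (-0.23), Ddx43 (-0.45), Ddx50 (-0.26) and Dhx32 (-0.20), named after their values were seen. Ddx19b lost its call without DMSO-1 or GANC-2, and Ddx43 without DMSO-2 or GANC-1. Ddx50 and Dhx32 lost theirs without DMSO-1, DMSO-2 or GANC-2. The splicing helicases Dhx16 and Dhx38 rose by 0.63 ± 0.06 and 0.33 ± 0.07, Dhx9 by 0.31 ± 0.06 and the export helicase Ddx39a by 0.32 ± 0.06. Mitochondrial ribosomal proteins stayed below the background: 12 of 77 (15.6%) were called, 10 higher and 2 lower, with a median of 0.02, and leaving out any of the 4 libraries left 4 or 5 higher. Mrps7 rose by 0.37 ± 0.07 and Mrpl23 fell by 0.35 ± 0.08.

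**Figure D4:**
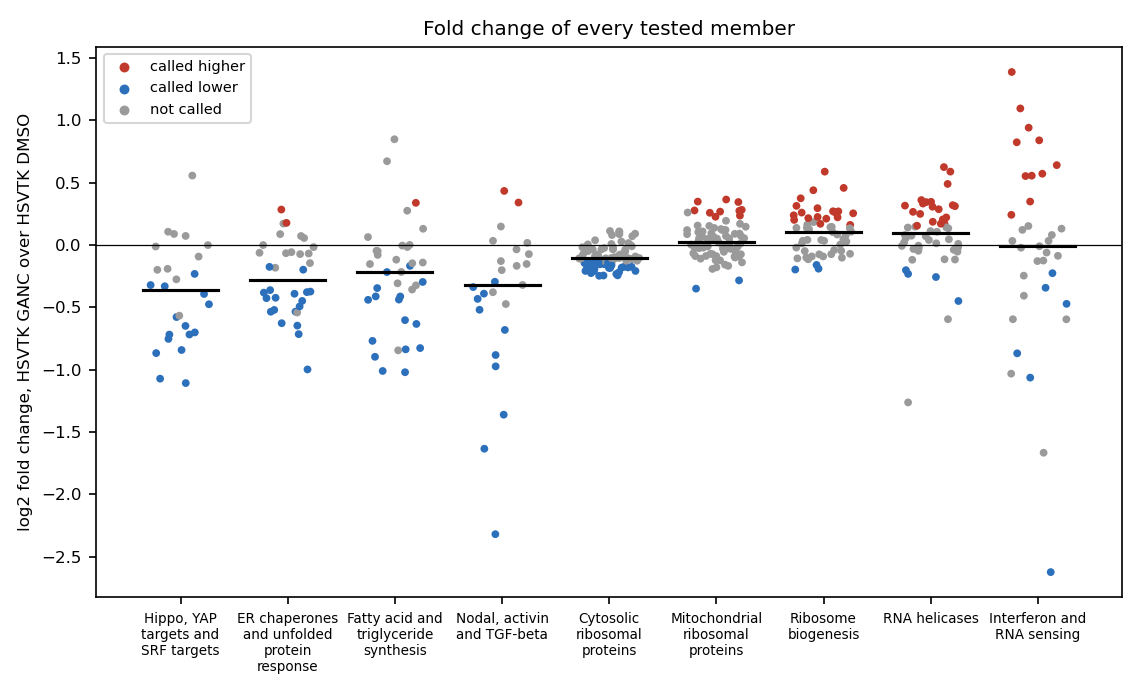
Log2 fold change of every tested member of 9 lists of GANC over DMSO in the HSVTK libraries as labelled; each point is a gene, red called higher, blue called lower and grey not called, and the black bar is the median of the list. Cytosolic ribosomal proteins lie close together just under 0 with a median of -0.11, and ribosome biogenesis factors just over 0 with a median of 0.11.

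Chromatin regulators of silencing were called in both directions. Polycomb group proteins mark developmental genes through methylation of lysine 27 of histone H3 and ubiquitin on H2A. Of 44 members 13 were lower and 7 higher, with a median of -0.06, and without DMSO-1 the members lower were 8, with limma on log2(FPKM + 1) 7, and without DMSO-2 those higher were 4. Called members made up 45.5% of the Polycomb list. The methyltransferase Ezh2 fell by 0.41 ± 0.06, Phc1 by 0.38 ± 0.06, Pcgf5 by 1.34 ± 0.14 and Auts2, a partner of Pcgf5 in a variant complex, by 1.11 ± 0.14. Epop, which limits Polycomb at active genes, rose by 0.55 ± 0.07 and Kdm2b, which brings a variant complex to CpG islands, by 0.49 ± 0.08. The catalytic subunit Rnf2 (-0.02 ± 0.06, adjusted p = 0.865) and Jarid2 (0.11 ± 0.05, adjusted p = 0.149) did not pass the test, the latter with adjusted p = 0.0454 without GANC-2. Genes of silencing by methylation of lysine 9 of H3 had 10 of 33 members higher and 1 lower, with a median of 0.04. The share called was 33.3%, near the 35.4% of all genes with a mean of at least 1 CPM. Most of these calls were weak: 3 were higher without DMSO-1, 3 without DMSO-2 and 4 without GANC-1. The member called lower was Mphosph8 (-0.25), a part of the HUSH complex named after its values were seen, whose adjusted p was 0.0541 to 0.107 without each of the 4 libraries. The heterochromatin protein Cbx5 rose by 0.33 ± 0.06, Zfp57, which guards imprints, by 0.26 ± 0.05 and Atf7ip2, which partners an H3K9 methyltransferase, by 0.57 ± 0.09.

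Mitotic genes fell, mostly by small steps. Of the list 46.7% were called, against 35.4% of well expressed genes. Of 75 tested genes of mitotic entry, spindle and kinetochore 30 were lower and 5 higher, with a median of -0.12, and without DMSO-1 or with limma on log2(FPKM + 1) the members lower were 19. Those higher were 3 without DMSO-2 or GANC-1. The securin Pttg1 stood at 62.9 and 64.1 CPM in the libraries labelled DMSO and at 31.3 and 34.3 CPM in those labelled GANC, and was the member with the lowest adjusted p. The proliferation antigen Mki67 fell by 0.49 ± 0.07, the spindle protein Nusap1 by 0.56 ± 0.07 and the midzone protein Prc1 by 0.57 ± 0.07. The members called higher, named after their values were seen, were Ccnf (0.28), Cenpt (0.40), Ckap2 (0.17), Kif18b (0.31) and Troap (0.42). Ckap2 lost its call without each of the 4 HSVTK libraries in turn, and Kif18b without DMSO-2 or GANC-1. Mki67 fell in Control cells as well, by 0.29 (adjusted p = 0.0112), and 12 members of the list were lower and 1 higher there. The median of the list in Control cells was -0.10, close to that in HSVTK cells. In the interaction test 14 members had a lower and 8 a higher response in HSVTK cells. The anaphase activator Cdc20 (0.02 ± 0.06, adjusted p = 0.859) and Birc5 (0.07 ± 0.06, adjusted p = 0.426) did not pass the test. The CHR element TTTGAA, known from promoters of cell cycle genes, was present on either strand of 13.3% of all promoters and of 22 of 65 members. Of those 22 members 7 were lower, and of the other 43 members 20 were lower. The list came from general knowledge of mitosis, so its share with the element is not a result of these data.

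Replication genes had 14 of 53 members lower and 3 higher, with a median of -0.05, with 7 lower without DMSO-2 and 8 lower and 5 higher without GANC-1. In the fit to all libraries 32.1% of members were called, below the 35.4% of all genes with a mean of at least 1 CPM. The helicase subunit Mcm6 fell by 0.39 ± 0.05, the polymerase subunit Pold2 by 0.42 ± 0.07 and the origin kinase Cdc7 by 0.49 ± 0.08. Pola1, a polymerase subunit named after its values were seen, rose by 0.22 ± 0.07. Its call did not hold without DMSO-1, DMSO-2 or GANC-2. Timeless, which protects forks, rose by 0.41 ± 0.07 and the helicase Recql4 by 0.52 ± 0.09. Mcm7 stood at -0.09 ± 0.05 (adjusted p = 0.192). Of the 14 members called lower, 13 were nearer to Control DMSO in the libraries labelled GANC.

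Germline and meiosis genes were lower more often than higher. Of the list 54.3% were called, against 35.4% of well expressed genes. Of 35 tested members 14 were lower and 5 higher, with a median of -0.24, and without DMSO-1 or GANC-1 the members lower were 9 and 8. The members higher were 1 or 2 without any of the 4 libraries, and DESeq2 called 9 lower and 2 higher. Those 5, named after their values were seen, were Ddx4 (0.29), Hormad1 (0.31), Nanos3 (0.94), Taf7l (0.56) and Tex19.1 (0.39). Ddx4, Hormad1 and Taf7l lost their calls without each of the 4 libraries in turn. DESeq2's Wald test did not call them either (adjusted p = 0.0803, 0.0821 and 0.127). Nanos3 lost its call without DMSO-1 or GANC-2. Stra8, which starts meiosis, stood at 63.6 and 64.3 CPM in the libraries labelled DMSO and at 10.7 and 10.5 CPM in those labelled GANC, and at 6.77 to 13.1 CPM in Control cells. The libraries labelled DMSO thus stood alone, and the gene rose in Control cells by 0.62 (adjusted p = 0.00344). The synaptonemal complex gene Syce2 fell by 0.87 ± 0.07, the germ cell factor Tfap2c by 1.01 ± 0.09, the receptor Kit by 0.86 ± 0.08 and Meioc, which keeps meiosis going, by 1.14 ± 0.16. Dazl (0.05 ± 0.13, adjusted p = 0.810) and Prdm1 (-0.21 ± 0.13, adjusted p = 0.232) did not pass the test.

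Genes of the interferon response and of RNA sensing were called in both directions. Of 35 tested members 11 were higher, against a background of 16.2%, and 6 lower, with a median of -0.01. Rigi (ENSMUSG00000040296), which detects viral RNA, stood at 38.7 and 41.8 CPM in the libraries labelled DMSO and at 76.3 and 78.4 CPM in those labelled GANC. Control DMSO held 75.1 and 75.2 CPM and Control GANC 61.4 and 64.7 CPM, so the libraries labelled DMSO were the low ones. It rose by 0.94 ± 0.07 (adjusted p = 1.52e-10). The interferon regulatory factors Irf3 and Irf9 rose by 0.82 ± 0.11 and 1.10 ± 0.15, and Xaf1 by 1.39 ± 0.15. The antiviral membrane protein Ifitm3 rose by 0.55 ± 0.07, whereas Ifitm1 fell by 0.34 ± 0.06. Stat2 (0.12 ± 0.11, adjusted p = 0.470), Eif2ak2 (0.03 ± 0.10, adjusted p = 0.851) and Adar (-0.01 ± 0.08, adjusted p = 0.950) did not pass the test.

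Lysosomal genes had 14 of 60 members higher and 8 lower, with a median of 0.05, and 8 higher without DMSO-1. In the fit to all libraries 36.7% of members were called, near the 35.4% of all genes with a mean of at least 1 CPM. The peptidase Tpp1 rose by 0.57 ± 0.07 and fell in Control cells by 0.45 (adjusted p = 0.000301). The mannosidase Man2b1 rose by 0.42 ± 0.08, and the membrane protein Lamp2 and the sorting receptor Sort1 fell by 0.55 ± 0.09 and 0.54 ± 0.10. The palindrome CACGTG, to which TFEB and related factors of lysosomal genes bind, was present in 15 of 46 members and in 9.66% of all promoters. Of those 15 members 5 were higher and 1 lower, and of the other 31 members 8 were higher and 3 lower. The list came from general knowledge of lysosomes, so its share with the palindrome is not a result of these data.

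Enzymes and transporters that handle nucleosides or expel drugs were changed in both directions. Ganciclovir needs kinases after the first phosphorylation, and guanylate kinase is the one known for the next step. Guk1 stood at 101 and 114 CPM in the libraries labelled DMSO and at 105 and 107 CPM in those labelled GANC (-0.02 ± 0.08, adjusted p = 0.899). Tk1, the thymidine kinase of the cell itself, was at -0.05 ± 0.07 (adjusted p = 0.628) and deoxycytidine kinase Dck at 0.06 ± 0.08 (adjusted p = 0.628). In the whole list 8 of 29 members were higher and 6 lower (48.3% called, against 35.4% of well expressed genes). The members higher were 4 without DMSO-1, DMSO-2 or GANC-1, and those lower were 3 without DMSO-1. Upp1, which splits uridine, stood at 696 and 714 CPM in the libraries labelled DMSO and at 267 and 318 CPM in those labelled GANC. It fell by 1.27 ± 0.06 (adjusted p = 7.54e-15) and rose in Control cells by 0.44 (adjusted p = 5.77e-05). The adenylate kinase Ak1 rose by 0.98 ± 0.08, the lysosomal nucleoside transporter Slc29a3 by 0.88 ± 0.09 and the thymidylate kinase Dtymk by 0.29 ± 0.06. The plasma membrane transporter Slc29a1 stood at -0.11 ± 0.06 (adjusted p = 0.165).

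Of 26 ABC transporters 4 were higher and 5 lower. The share called was 34.6%, near the 35.4% of all genes with a mean of at least 1 CPM. Abcb1b (ENSMUSG00000028970), a P-glycoprotein that expels many drugs, stood at 14 and 15.5 CPM in the libraries labelled DMSO and at 35.6 and 38.6 CPM in those labelled GANC. It rose by 1.33 ± 0.10 (adjusted p = 3.79e-11), and again the libraries labelled DMSO were the low ones, since Control DMSO held 34.1 and 36.6 CPM and Control GANC 24.3 and 26.1 CPM. Abcc5, an exporter of nucleotide analogues, rose by 0.59 ± 0.06, and the exporter Abcc1 fell by 0.75 ± 0.09. Of the transporters of cholesterol Abca1 rose by 0.92 ± 0.11 and Abcg1 fell by 0.79 ± 0.13. Abcc4, another exporter of nucleotide analogues, stood at 0.09 ± 0.07 (adjusted p = 0.385). The solute carrier family had 62 of 277 members higher and 43 lower, with 38 higher without DMSO-1. In the fit to all libraries 37.9% of this family were called, near the 35.4% of all genes with a mean of at least 1 CPM. Its abundant member with the largest rise was the creatine transporter Slc6a8, from 121 and 132 CPM to 215 and 230 CPM.

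Genes of cell death and of heat shock were near the background of 35.4% called among well expressed genes. Of the heat shock chaperones 40.7% were called. Outside the p53 targets, 6 of 39 genes of the apoptosis machinery were higher and 9 lower (38.5% called), with 3 higher without DMSO-2 or GANC-1. The executioner caspase Casp6 fell by 1.43 ± 0.19 and Bmf, which promotes apoptosis, by 0.73 ± 0.10, while Bid, another promoter, rose by 0.54 ± 0.08. Heat shock chaperones had 5 of 27 members higher and 6 lower, and 3 in each direction without DMSO-2. Hsph1 and Hspb1 rose by 0.44 ± 0.06 and 0.31 ± 0.05 and Hspb8 fell by 0.82 ± 0.10, and the abundant Hspa8 stood at 0.05 ± 0.05 (adjusted p = 0.422). Potassium channels, mostly weak in stem cells, had 11 of 54 members lower and 1 higher, with a median of -0.25. The share called was 22.2%, below the 28.5% of all tested genes. The members lower were 3 without DMSO-1, 7 without GANC-1 and 6 without GANC-2, where the median was -0.39, and limma on log2(FPKM + 1) gave a median of -0.03. The member called higher was Kcnq1ot1 (0.39), a long RNA from within a channel gene, named after its values were seen, with an adjusted p of 0.0649 to 0.167 without each of the 4 libraries. Kcnk5, a leak channel, fell by 0.47 ± 0.07.

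Several large complexes had fewer called members than the 35.4% of all well expressed genes. In respiratory complex I 7 of 36 nuclear subunits (19.4%) were called, and in complexes III to V 5 of 38 (13.2%). The proteasome had 9 of 46 (19.6%), nuclear pore and transport 8 of 50 (16%), tRNA synthetases 2 of 20 (10%) and endosomal sorting 9 of 40 (22.5%). A missed threshold does not show that their values were equal. Single libraries moved the small counts: without DMSO-2, complex I had 1 lower, the proteasome 1 lower and the nuclear pore 1 higher.

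Single genes were also named by the size of their change, whether or not a list holds them. Among the largest falls with a mean of at least 1 CPM, the NMDA receptor subunit Grin1 stood at 9.94 and 11.7 CPM in the libraries labelled DMSO and at 1.97 and 1.79 CPM in those labelled GANC. It fell by 2.52 ± 0.20 (adjusted p = 3.09e-10) and rose in Control cells by 1.30 (adjusted p = 0.000483). The keratin Krt19 fell by 2.42 ± 0.27, the axonemal dynein chain Dnai2 by 2.56 ± 0.37 and Pxylp1, which acts in proteoglycan synthesis, fell by 2.51 ± 0.36. H2-Ab1, a chain of MHC class II, stood at 1.78 and 2.02 CPM and then at 0.159 and 0.448 CPM, and rose in Control cells from 0.123 and 0.205 CPM to 1.25 and 0.995 CPM. Its fold changes were -2.62 ± 0.48 in HSVTK and 2.76 (adjusted p = 0.00241) in Control cells.

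Among the largest rises, the homeobox gene Nkx2-9 stood at 0.654 and 1.02 CPM in the libraries labelled DMSO and at 4.25 and 3.17 CPM in those labelled GANC, and at 6.05 and 7.66 CPM in Control DMSO. The melanocortin receptor Mc5r rose by 2.09 ± 0.23 and the cadherin Cdh9 by 1.92 ± 0.29. Among abundant genes, with a mean of at least 100 CPM, Apoe, the lipid carrier, stood at 219 and 243 CPM in the libraries labelled DMSO and at 375 and 359 CPM in those labelled GANC. It rose by 0.67 ± 0.06 (adjusted p = 7.57e-09) and fell in Control cells by 0.47 (adjusted p = 4.06e-05). Cds2, which makes an intermediate of phosphoinositides, rose by 0.70 ± 0.06, Ass1 of the urea cycle by 0.67 ± 0.07, the clathrin light chain Cltb by 0.67 ± 0.07, netrin Ntn1 by 0.65 ± 0.07 and the cytolinker plectin Plec by 0.64 ± 0.06.

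Summed levels of markers of other cell types differed between the groups in part. The summed level of 25 endoderm markers was 516 and 538 CPM in the libraries labelled DMSO and 706 and 665 CPM in those labelled GANC, of which Apoe made up the largest share. That of 19 fibroblast and feeder markers was 909 and 905 CPM and then 778 and 756 CPM. Fn1, which stem cells also express, made up the largest share. The sum of 22 trophoblast markers was 99.3 and 100.2 CPM and then 82.8 and 78.0 CPM. Tfap2c, named above as a germ cell factor, went from 36.2 and 37.6 CPM to 18.4 and 18.2 CPM and carried most of that drop. Mesoderm markers summed to 24.4 and 26.0 CPM and then 30.9 and 29.4 CPM. Neural markers summed to 725 and 733 CPM and then 693 and 742 CPM. Of these Stmn2 made up the largest share, at 494 and 512 CPM and then 417 and 479 CPM. In the Control libraries the sums were 550 to 714 CPM for endoderm and 769 to 895 CPM for fibroblasts. They were 86.6 to 100.8 CPM there for trophoblast, 23.3 to 27.9 CPM for mesoderm and 643.5 to 751.8 CPM for neural markers. Called members were 5 higher and 3 lower of 20 tested for endoderm (40%) and 1 higher and 4 lower of 11 for fibroblasts (45.5%). For trophoblast they were 3 and 3 of 18 (33.3%), and for mesoderm 4 and 2 of 19 (31.6%). For neural genes they were 5 and 3 of 20 (40%). Of all tested genes 28.5% were called, and of those with a mean of at least 1 CPM 35.4%. The endoderm members higher were 1 without DMSO-2, 2 without GANC-1 and 3 without GANC-2, and those lower there 1. Trophoblast members higher were 0 or 1 without any library, and fibroblast members lower were 2 without each library but GANC-1. Mesoderm members higher were 2 without DMSO-1, and those lower 1 without GANC-2. In bulk RNA, more cells of a type and more RNA per cell cannot be told apart.

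Non-coding genes leaned upward. The type of 17556 of the tested genes (97.7%) was read by gene ID from GENCODE vM21. Among genes with a mean of at least 1 CPM, 63 of 248 lincRNA genes were higher and 19 lower, with a median of 0.16, and 32 of 173 antisense genes were higher and 5 lower, with a median of 0.30. For protein-coding genes the counts were 1982 higher and 2503 lower of 12018, with a median of -0.02. In Control cells the same types leaned the other way: 7 lincRNA genes were higher and 18 lower, and 1 antisense gene was higher and 15 lower. Reads of an antisense gene and of its partner cannot be told apart, since the strand setting of the counts is not known here. The libraries labelled GANC are also those with the most genes with a count, and the part of that difference in this result was not tested.

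**Figure D5:**
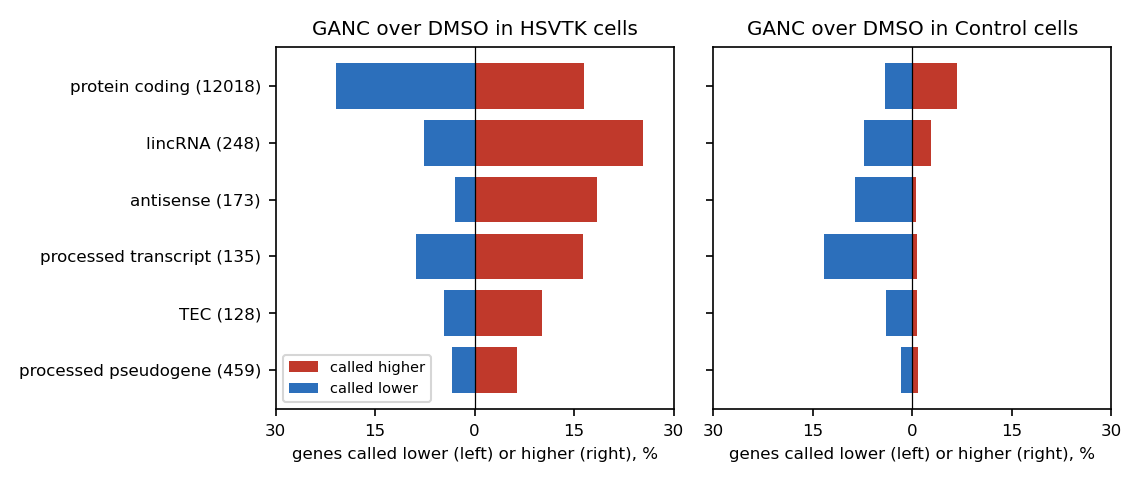
Share of genes called higher (red, right) or lower (blue, left) under GANC, in percent of the tested genes of each GENCODE type with a mean of at least 1 CPM, whose number stands in brackets; the left panel shows HSVTK cells and the right panel Control cells. The red bars of lincRNA and antisense genes are longer than their blue bars in HSVTK cells and shorter in Control cells.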

How the data were processed

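The 8 libraries were mapped to groups by their labels, and total RNA had been taken up by a phenol step (strand of the library kit: not given in the sources used here). Raw read counts per gene for 57010 rows, and FPKM values made from them, were deposited by the authors; the FPKM are the counts per gene length and library total, as tested on the files. Per the submitters' processing notes, the build was GRCm39 and the tools were featureCounts 2.0.1, HISAT2 2.1.0, DESeq2 1.40.2 and fastp 0.23.2.

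Counts were tested with edgeR 4.0.16 in R 4.3.3 (quasi-likelihood F test, TMM scaling, filterByExpr by group) in 1 fit over all 8 libraries with 4 residual degrees of freedom. Benjamini-Hochberg adjustment ran over 17976 genes, and a gene was called under 0.05. The SE is the size of the log2 fold change over the root of F. DESeq2 1.42.0 and limma 3.58.1 on log2(FPKM + 1) were alternatives, beside library size scaling, other filters, a replicate block and leaving out each library. Counts were also simulated for the HSVTK comparison over 17976 genes. In them 100 genes were changed 1.5-fold and 100 were changed 2-fold, all with at least 1 CPM. Of these edgeR recovered 81% and 94%. The same spread was used for all genes, and far fewer genes changed than were called here. These shares are therefore not the sensitivity over all genes in these data. The members and lists were chosen with earlier results of these data known. The lists described are not those with the largest medians. Lists left out include protocadherin clusters (median 0.68, 8 of 24 higher and 0 lower). Replication-dependent histones (median -0.60, 7 of 47 lower and 2 higher) were left out too. Named genes are, for each list, up to 6 called members with the lowest adjusted p and a mean of at least 1 CPM and up to 4 that were not called; then the 15 largest rises and 15 largest falls with a mean of at least 1 CPM whose libraries do not overlap, and the 10 largest of each with at least 100 CPM, symbols that are model numbers passed over; and Pou5f1, Sox2, Nanog, Zscan4c and Tk1. Other genes are said to be named after their values were seen. Promoters come from RefSeq (GRCm38.p6) by symbol and types from GENCODE vM21 by ID. A few genes of these lists are not reported here.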

Additional observations from a re-analysis of the deposited data

Results flagged for a closer look

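The response to ganciclovir in HSVTK cells differed from that in Control cells in edgeR's interaction test for 4595 of 17976 genes, and the genes named above that are among them are given here. Each value is the difference of the 2 log2 fold changes, HSVTK minus Control, and a value below 0 is a lower response in HSVTK cells. Among actin, motor, matrix and adhesion genes, the response in HSVTK cells was lower for Actg1 (-0.37), Cnn2 (-1.11), Fn1 (-0.70), Itgb1 (-0.23), Kif21b (-1.82), Lamb1 (-0.87), Lats1 (-0.85), Loxl2 (-3.65) and Myh10 (-0.77). To these add Myh14 (-1.34), Myo10 (-0.59), Nid2 (-0.68), P4ha1 (-1.85), P4ha2 (-1.79), Plod2 (-1.01), Srf (-0.90), Tead2 (-1.08) and Tgm2 (-2.24). Next come Tpm4 (-0.82), Tubb6 (-0.89) and Vcl (-1.08). Values were higher for Col18a1 (0.38), Fbn1 (1.41), Itgb4 (0.74), Itgb5 (0.78), Map1a (0.63), Parvb (0.70) and Vcan (1.07). Among endoplasmic reticulum and Golgi genes, the response in HSVTK cells was lower for Copg2 (-0.54), Copz2 (-3.61), Dnajc3 (-0.34), Ero1a (-1.16), Herpud1 (-0.74), Lman1 (-0.30), Pdia6 (-0.41), Selenos (-0.42) and Surf4 (-0.46). To these add Tmed2 (-0.56) and Txndc5 (-0.80). Values were higher for Calr (0.23), Pdia3 (0.42) and Pdia4 (0.41). Among fatty acid enzymes, the response in HSVTK cells was lower for Acsl3 (-1.07), Acss2 (-1.44), Fads1 (-1.21), Fads2 (-1.66), Scd1 (-1.73), Scd2 (-1.22) and Srebf1 (-0.42). Among members of the Nodal, Notch and insulin pathways, the response in HSVTK cells was lower for Dll1 (-1.50), Igf1r (-1.02), Igf2r (-0.88), Igfbp2 (-1.60), Igfbp4 (-2.36), Insr (-1.29), Jag1 (-0.55), Jag2 (-0.97) and Lefty1 (-1.36). To these add Ltbp1 (-2.03), Nodal (-0.33), Skil (-0.80) and Tdgf1 (-0.94). Values were higher for Gdf3 (0.84) and Hes1 (0.79). Among genes of ribosomes and RNA helicases, the response in HSVTK cells was lower for Ddx19b (-0.26), Mrpl23 (-0.40), Rpl26 (-0.26), Rpl27a (-0.28), Rpsa (-0.21) and Utp3 (-0.25). A higher response was found for Ddx39a (0.56), Ddx56 (0.68), Dhx16 (0.70), Dhx9 (0.39), Ftsj3 (0.59), Mrps7 (0.62), Ncl (0.21), Nolc1 (0.37) and Nop56 (0.64). Also higher were Polr1a (0.30) and Utp20 (0.74). Among chromatin genes, the response in HSVTK cells was lower for Auts2 (-1.54), Ezh2 (-0.41), Pcgf5 (-1.63) and Phc1 (-0.60). Values were higher for Atf7ip2 (1.01), Cbx5 (0.51), Epop (0.44), Kdm2b (0.42) and Zfp57 (0.47). Among mitotic, replication and germline genes, the response in HSVTK cells was lower for Cdc7 (-0.40), Kit (-1.22), Mcm6 (-0.42), Meioc (-1.25), Nusap1 (-0.47), Pold2 (-0.62), Prc1 (-0.59), Pttg1 (-0.98) and Stra8 (-3.21). To these add Syce2 (-1.19) and Tfap2c (-1.07). Values were higher for Ccnf (0.24), Cenpt (0.53), Ckap2 (0.40), Ddx4 (0.68), Nanos3 (1.05), Pola1 (0.30), Recql4 (0.64), Timeless (0.31) and Troap (0.50). Among interferon and lysosomal genes, the response in HSVTK cells was lower for Lamp2 (-0.41) and Sort1 (-0.82). A higher response was found for Ifitm3 (0.74), Irf3 (0.97), Irf9 (1.59), Man2b1 (0.33), Rigi (1.19), Tpp1 (1.02) and Xaf1 (1.74). Among nucleoside enzymes and transporters, the response in HSVTK cells was lower for Abcc1 (-1.14), Abcg1 (-1.40) and Upp1 (-1.71). A higher response was found for Abca1 (0.96), Abcb1b (1.82), Abcc5 (0.82), Ak1 (0.97), Dtymk (0.39), Slc29a3 (0.61) and Slc6a8 (0.55). Among genes of cell death, heat shock and channels, the response in HSVTK cells was lower for Bmf (-1.16), Casp6 (-1.72), Hspb8 (-1.04) and Kcnk5 (-0.76). A higher response was found for Bid (0.56), Hspa8 (0.25), Hspb1 (0.38), Hsph1 (0.50) and Kcnq1ot1 (0.87). Among genes named for size, and markers, the response in HSVTK cells was lower for Dnai2 (-2.94), Grin1 (-3.82), H2-Ab1 (-5.38), Krt19 (-2.62), Pxylp1 (-3.33) and Sox2 (-0.50). A higher response was found for Apoe (1.14), Ass1 (0.60), Cdh9 (2.46), Cds2 (0.95), Cltb (0.88), Mc5r (2.94), Nkx2-9 (2.93), Ntn1 (0.48) and Plec (0.56). Next come Tubb3 (0.48) and Zscan4c (1.10).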

How the results depend on the processing

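In HSVTK cells 5119 genes were called, and other fits gave these totals, whose overlap with the 5119 was not counted: 4831 with edgeR and no filter, 4026 with limma on log2(FPKM + 1), 2615 with limma on log2(FPKM + 1) and no filter, and 486 (204 higher, 282 lower) in edgeR's test against a 1.5-fold change. Leaving out a library gave 3313 to 3740. In Control cells the total was 1453, and it was 1486 with edgeR and no filter, 190 and 251 with limma on log2(FPKM + 1) and log2(FPKM + 0.1), 29 with limma on log2(FPKM + 1) and no filter, 6 in the test against a 1.5-fold change and 433 to 2010 without a library. For the difference of responses it was 4595, then 4368 with edgeR and no filter, 1981 with limma on log2(FPKM + 1) and no filter, 815 in the test against a 1.5-fold change and 3415 to 4638 without a library. The cause was not tested. With library size scaling 2758 genes were higher and 2325 lower in HSVTK cells, against 2391 and 2728 with TMM. Same-numbered libraries did not deviate together (correlations of -0.0319 to 0.0145), so the numbers do not pair them, and the fit with a replicate block called 4932, 1339 and 4432 genes. Where a fit leaves out a library, the lone library is assumed to vary like the other groups. With 2 libraries a group the spread is known poorly, and most differences are under 1.5-fold.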
